A study of Schizosaccharomyces pombe with 4 samples.

Results

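The heat shock chaperone genes of the fission yeast Schizosaccharomyces pombe were examined in long reads of nascent RNA, the RNA that polymerase is still making. The genes were 9 listed members, hsp90, wos2, ssa1, ssa2, pss1, sks2, hsp104, hsp16 and hsp9, of 5113 annotated protein-coding genes on chromosomes I to III. A read was given to the gene on its own strand that held most of its aligned bases. Because each read comes from 1 RNA molecule, the position of its 3′ end is taken to mark how far transcription had gone. A gap in the alignment is taken to mark an intron already removed.

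The study sequenced nuclear RNA without poly(A) from 4 cultures in complete YES medium, each started from a single colony. The prp2-1 strain carries leu1.32 and prp2-C387Y, and it was grown at 26 °C and moved to 37 °C for 2 hours before harvest. The wild type at 37 °C was strain L972, h-, with the same shift. Wild type at 30 °C was harvested in exponential growth, with strain L972, h-, as replicate 1 and strain SP286, h+ and marked prp5::KanMx-prp5-WT, as replicate 2. Only the 30 °C wild type had a second library, and its 2 libraries came from different strains. The prp2 gene encodes the large subunit of U2AF, the factor that recognises the 3′ end of introns, and prp2-1 is a temperature-sensitive allele. Since prp2-1 also carries leu1.32, the 2 mutations cannot be told apart here. Temperature and the 26 °C preculture also cannot be told apart between the 37 °C and 30 °C cultures.

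Chaperones hold unfolded proteins and help them fold or refold. Hsp70 proteins bind short exposed stretches, Hsp90 completes the folding of particular client proteins, Hsp104 pulls proteins out of aggregates, and small heat shock proteins hold denatured proteins until other chaperones act. In yeasts many of these genes are transcribed through heat shock factor, which binds heat shock elements, inverted repeats of GAA units spaced by a pair of free bases.

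Aligned reads per library numbered 33746 in prp2-1 at 37 °C, 32176 in the wild type at 37 °C, 123756 in 30 °C replicate 1 and 45318 in 30 °C replicate 2. Of these, 25070, 25952, 62027 and 32325 reads in the same order fell in protein-coding genes, and levels are given as reads per 10000 of those. The median aligned span was 771 nt in prp2-1 and 890 nt in the wild type at 37 °C, against 256 nt and 436 nt in 30 °C replicates 1 and 2. The 2 libraries at 37 °C shared 6 sequencing cells and 3769 read names, and the 30 °C libraries shared no cell with each other or with them. Intervals on levels and ratios are 95% and cover counting error only. Where a test compares reads of a pair of libraries, its p-value speaks of those libraries and not of the strains or temperatures.

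Promoter sequences are shown first because the members differ in whether exact runs of heat shock units were found in them. A window of 300 bases, from 250 before the annotated start to 50 from it on, was read from the RefSeq genome, build ASM294v3. It was searched on both strands for 2 adjoining heat shock units (GAANNTTC or TTCNNGAA) and for 3 units, each 3-unit run being counted also as a 2-unit match. Among the 9 members, 6 held at least 1 run of 2 units, whereas 19.9% of 5112 gene windows did. Runs of 3 units lay in ssa1 and ssa2 of the 9, whereas 0.469% of all windows held one. The runs are printed with 5 flanking bases on each side, in the direction of the gene, with the matching units and the bases between them in capitals.
hsp90: ttttgGAATGTTCgagtt
wos2: gtatgTTCTAGAAaatac
wos2, nearer the start: gtgacTTCAAGAAcctgc
ssa1: cccgtTTCTCGAAgcatc
ssa1, nearer the start: ttggtGAAGGTTCGAGAAtggac
ssa2: tttggGAAACTTCGAGAAccgta
pss1: tctcaGAACTTTCgagtt
hsp16: tacgaGAAAATTCgagtc
The first capital base lay 57 nt before the annotated start in hsp90, 58 nt in the 3-unit run of ssa1 and 59 nt in ssa2. It lay 93 nt before the start in hsp16 and 188 nt in pss1. No match was found in the windows of sks2, hsp104 and hsp9. A match describes the letters in the window and not a bound site. Only exact units were searched, so a window without a match may still hold an element.

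At 37 °C the chaperone genes took a larger share of nascent reads in prp2-1 than in the wild type. The 9 genes together held 545 reads in prp2-1, 2.17% of its protein-coding reads, against 281 reads or 1.08% in the wild type at 37 °C. The ratio of the summed levels was 2.01 (95% interval 1.74 to 2.33). At 30 °C the members held 696 reads or 1.12% in replicate 1 and 269 reads or 0.832% in replicate 2. The 37 °C wild type thus lay between the values of the 30 °C libraries for summed share, and prp2-1 lay above all 3 wild-type libraries.

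Called at least 2-fold higher in prp2-1 than in the wild type at 37 °C were 5 of the 9 members, hsp104, hsp16, ssa1, ssa2 and wos2, and 0 were 2-fold lower. Among all 825 genes with at least 10 reads in either library, 15.2% were 2-fold higher and 16% were 2-fold lower. Only in prp2-1 did ssa1 and hsp16 have 10 reads at 37 °C, so both passed the read minimum through the library in which they were high. With at least 20 reads required, 3 of 7 members were called higher, hsp104, ssa2 and wos2, beside 39 of 252 genes. Of these members, hsp104 (50 reads in prp2-1 and 15 in the wild type) and wos2 (33 and 13) passed that minimum only through prp2-1. The median ratio was 2.47 over the 9 members and 0.941 over the 823 tested genes with reads in both libraries. With 1 library per strain at 37 °C no p-value was computed for a level.

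**Figure D1:**
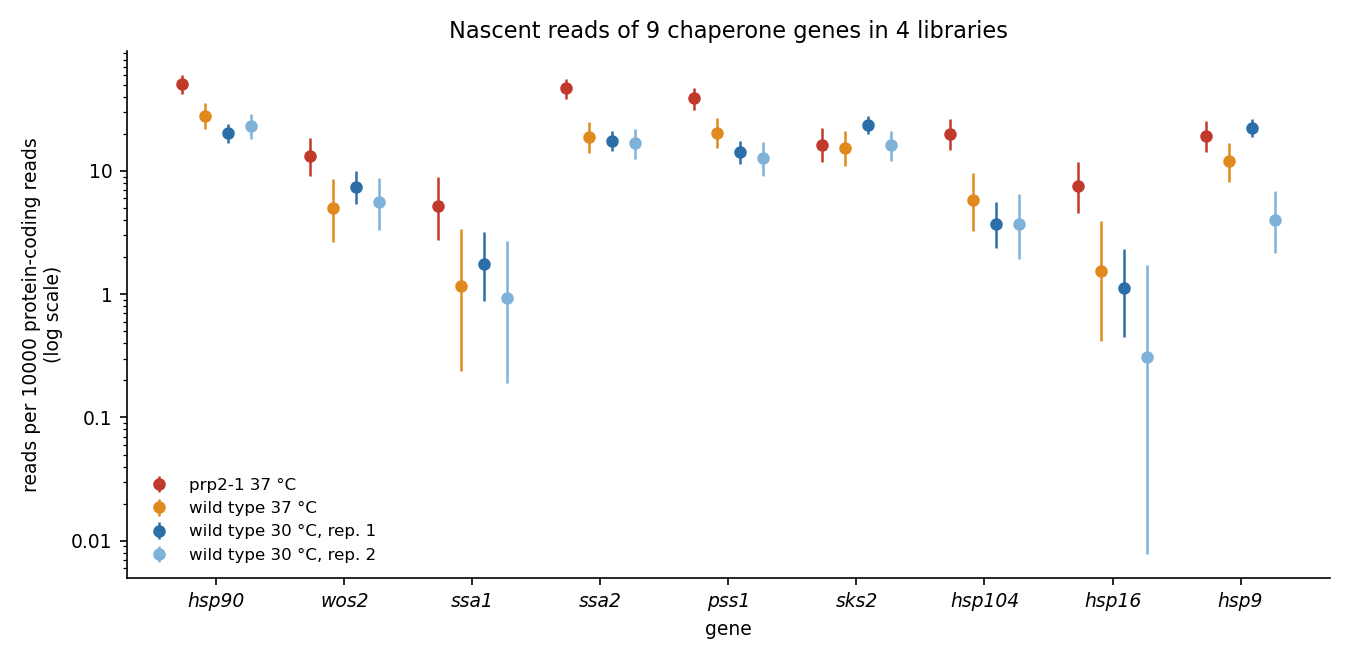
Levels of the 9 genes in reads per 10000 protein-coding reads on a log axis, with 95% Poisson intervals, in prp2-1 at 37 °C, wild type at 37 °C and the 2 wild-type libraries at 30 °C. The prp2-1 point is the highest of the 4 for 7 genes, whereas sks2 and hsp9 are highest in 30 °C replicate 1.

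Hsp90 and its p23 partner were both read more often in prp2-1. The hsp90 gene (I:3888558-3891139, minus strand, no intron) was at 50.7 reads per 10000 in prp2-1 (127 reads) and 28.1 in the wild type at 37 °C (73 reads). It was at 20.3 in 30 °C replicate 1 (126 reads) and 23.2 in replicate 2 (75 reads), a mean of 21.8 ± 2.04 (SD, n = 2). The prp2-1 library was above all 3 wild-type libraries, and the ratio to the wild type at 37 °C was 1.80 (1.34 to 2.44), short of 2-fold.

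The wos2 gene (I:4467887-4469089, minus strand, 1 intron) encodes p23, which binds Hsp90 and slows its cycle. It was at 13.2 reads per 10000 in prp2-1 (33 reads) and 5.01 in the wild type at 37 °C (13 reads), against 7.42 and 5.57 in 30 °C replicates 1 and 2 (46 and 18 reads). The wild type at 37 °C was the lowest of the 4 libraries and prp2-1 the highest. The ratio of prp2-1 to the wild type at 37 °C was 2.63 (1.35 to 5.44).

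The cytosolic Hsp70 genes ssa1 and ssa2 were both past 2-fold in prp2-1. The ssa2 gene (III:2057043-2059331, plus strand) was at 46.7 reads per 10000 in prp2-1 (117 reads), 18.9 in the wild type at 37 °C (49 reads), and 17.6 and 16.7 in 30 °C replicates 1 and 2 (109 and 54 reads). Its 3 wild-type libraries lay close together, at a 30 °C mean of 17.1 ± 0.614 (SD, n = 2), and prp2-1 stood apart with a ratio of 2.47 (1.76 to 3.52) to the wild type at 37 °C. The ssa1 gene (I:2295580-2297964, minus strand) had 13 reads in prp2-1, 3 in the wild type at 37 °C, 11 in 30 °C replicate 1 and 3 in replicate 2. Its level was 5.19 reads per 10000 in prp2-1 and 1.16 in the wild type at 37 °C, and the interval of the ratio, 4.49 (1.23 to 24.5), was wide at these counts. The coding sequences of ssa1 and ssa2 were identical at 82.9% of 1935 aligned bases, and how the authors' alignment placed reads between them is not given in the sources used here.

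The pss1 gene (I:1917767-1920696, minus strand, 1 intron in the 5′ UTR) encodes an Hsp110-type relative of Hsp70. Its level was 38.7 reads per 10000 in prp2-1 (97 reads) and 20.4 in the wild type at 37 °C (53 reads), against 14.2 and 12.7 in 30 °C replicates 1 and 2 (88 and 41 reads). The libraries were in that order, with the wild type at 37 °C 1.44 times (1.00 to 2.05) replicate 1 and 1.61 times (1.05 to 2.48) replicate 2. The ratio of prp2-1 to the wild type at 37 °C was 1.89 (1.34 to 2.70).

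The sks2 gene (II:1106396-1108511, plus strand) had nearly the same level in both 37 °C libraries. It encodes the Hsp70 that works on new polypeptides at the ribosome. Its level was 16.4 reads per 10000 in prp2-1 (41 reads) and 15.4 in the wild type at 37 °C (40 reads), against 23.7 and 16.1 in 30 °C replicates 1 and 2 (147 and 52 reads). The ratio of 1.06 had an interval of 0.669 to 1.68, which does not include the 2-fold used for a call.

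The disaggregase gene hsp104 (II:3612265-3615269, minus strand) was past 2-fold in prp2-1 against each of the other libraries. It was at 19.9 reads per 10000 in prp2-1 (50 reads) and 5.78 in the wild type at 37 °C (15 reads), against 3.71 in each 30 °C library (23 and 12 reads). The prp2-1 level was 3.45 times (1.91 to 6.62) that of the wild type at 37 °C, 5.38 times (3.22 to 9.24) that of 30 °C replicate 1 and 5.37 times (2.82 to 11.1) that of replicate 2. Its promoter window held no run of heat shock units.

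The hsp16 gene (II:2660139-2660992, minus strand) encodes a small heat shock protein and had 19 reads in prp2-1, 4 in the wild type at 37 °C, 7 in 30 °C replicate 1 and 1 in replicate 2. Its level was 7.58 reads per 10000 in prp2-1 and 1.54 in the wild type at 37 °C, a ratio of 4.92 (1.63 to 19.9). Of the 19 reads in prp2-1, 15 had distinct alignments, and with each alignment counted once the ratio was 3.95.

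The hsp9 gene (I:5319957-5320676, minus strand) encodes a plasma membrane heat shock protein related to Hsp12 of budding yeast. Its level was 19.1 reads per 10000 in prp2-1 (48 reads) and 11.9 in the wild type at 37 °C (31 reads), against 22.4 and 4.02 in 30 °C replicates 1 and 2 (139 and 13 reads). Replicate 1 was the highest of the 4 libraries and replicate 2 the lowest, so both 37 °C libraries lay inside the spread of the 30 °C wild type, a mean of 13.2 ± 13 (SD, n = 2). The ratio of prp2-1 to the wild type at 37 °C was 1.60 (1.00 to 2.60).

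**Figure D2:**
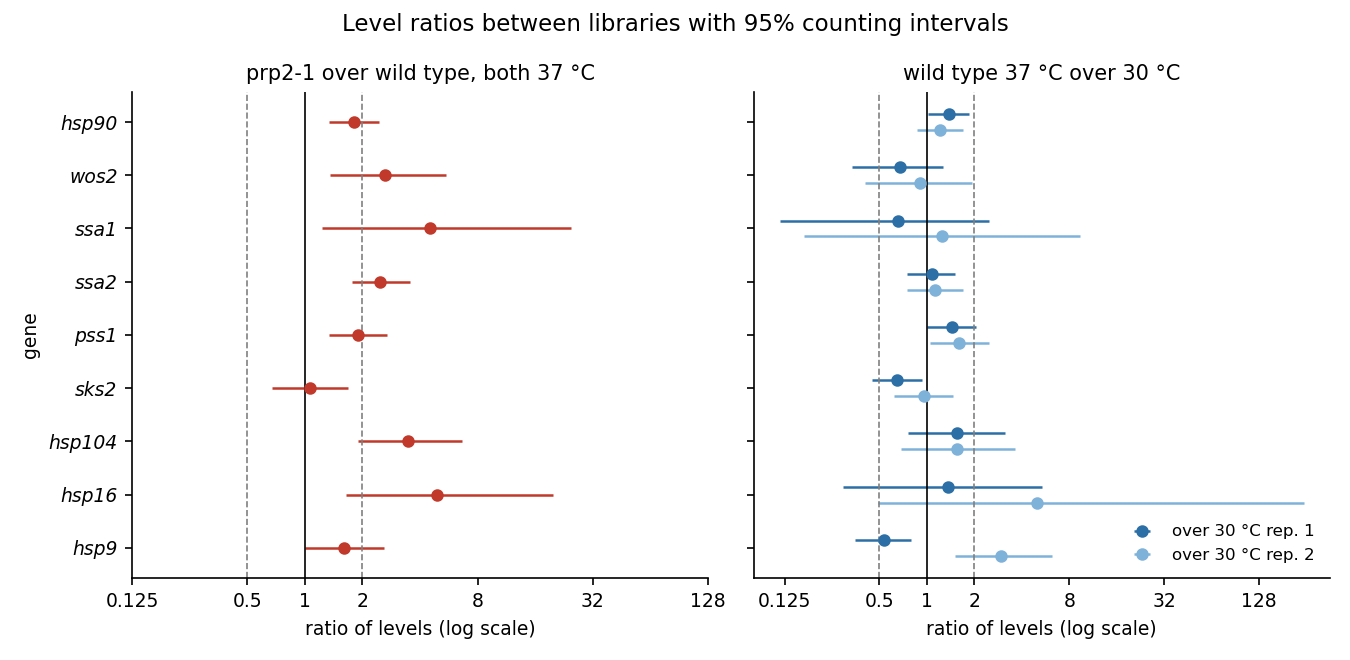
Ratios of levels on a log axis with exact 95% counting intervals, for prp2-1 over the wild type at 37 °C (left) and for the wild type at 37 °C over each 30 °C library (right), with solid lines at 1 and dashed lines at 0.5 and 2. On the left 8 of 9 points lie above 1.5 and sks2 lies at 1.06, and on the right hsp9 lies at 0.533 over replicate 1 and 2.97 over replicate 2.

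Within the 6 sequencing cells shared by the 37 °C libraries, 8 of the 9 genes had a higher level in prp2-1 in 6 of 6 cells. For wos2, hsp104, ssa1 and hsp9 this includes a cell with equal reads in both libraries, where only the totals differed. These had 3 reads each for wos2 and hsp104, 1 each for ssa1 and 6 each for hsp9. The share of all genes higher in every cell was not computed. The sks2 gene was higher in 3 of 6. For hsp104 the lowest, median and highest cell were 7.46, 22.2 and 30.1 reads per 10000 in prp2-1, against 2.04, 6.33 and 10.9 in the wild type at 37 °C. The 2 ranges of hsp104 overlapped, whereas those of ssa2 did not, at 30.9 to 63.6 in prp2-1 and 12.9 to 24.1 in the wild type at 37 °C. Cells are repeated reads of 1 preparation and not replicate cultures.

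**Figure D3:**
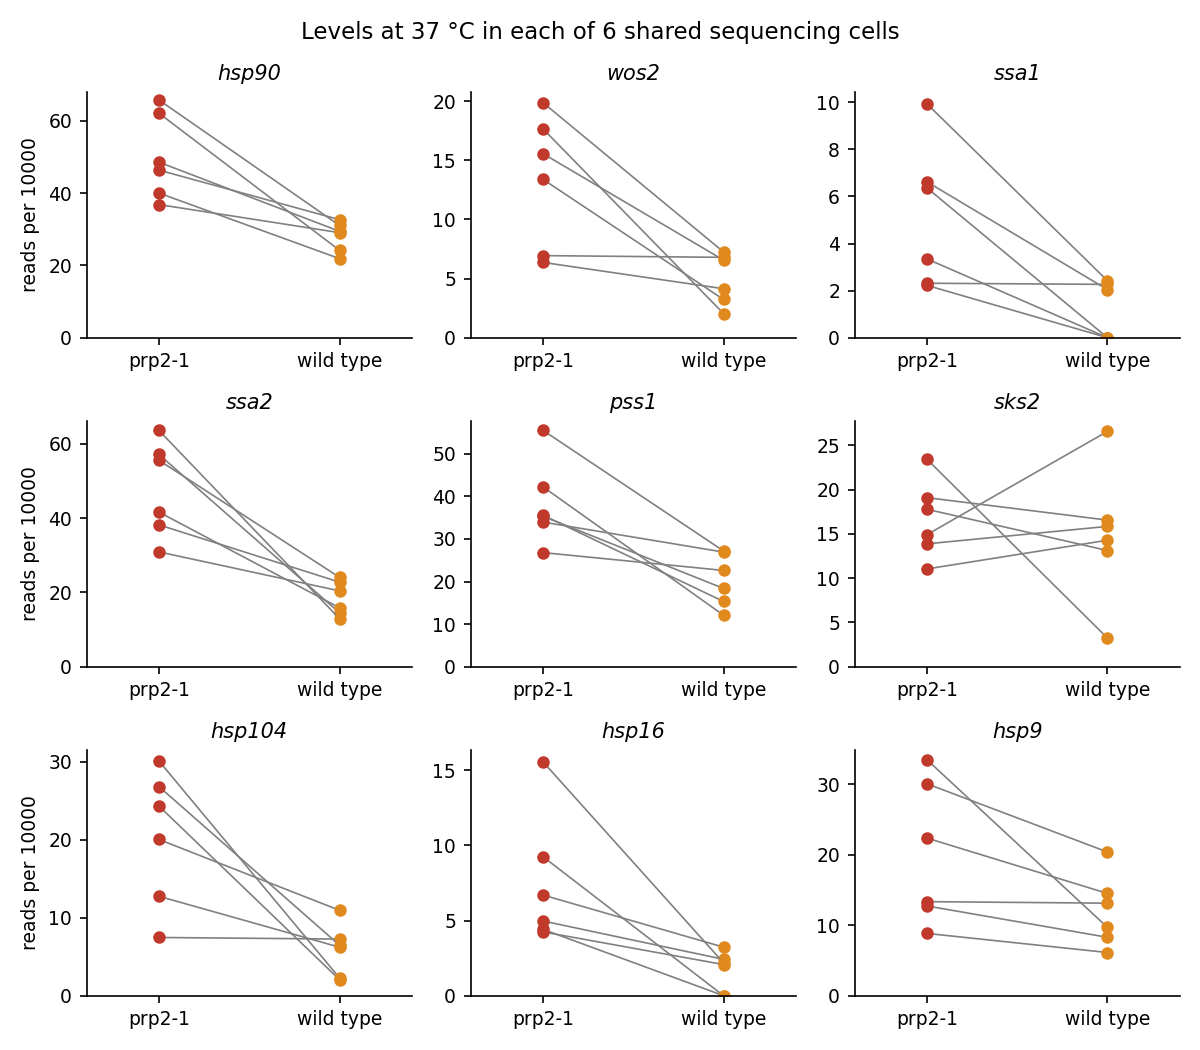
Levels of each gene in reads per 10000 protein-coding reads in the 6 sequencing cells that hold both 37 °C libraries, prp2-1 on the left and wild type on the right of each panel, with a line joining values from the same cell. Lines slope down to the wild type in 6 of 6 cells for 8 genes and in 3 of 6 for sks2.

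Between 37 °C and 30 °C in wild type, 0 of the 8 members with at least 10 reads were 2-fold higher than both 30 °C libraries, and 0 were 2-fold lower. Of 1636 genes tested, 6.42% were 2-fold higher and 12.2% were 2-fold lower. The hsp16 gene was below the minimum of 10 reads in these 3 libraries. The summed level of the members in the wild type at 37 °C was 0.965 times (0.837 to 1.11) that of 30 °C replicate 1 and 1.30 times (1.10 to 1.54) that of replicate 2. With 0.5 reads per 10000 added to each level, the median ratio of the 8 tested members was 0.884 over replicate 1 and 1.18 over replicate 2, beside 1.02 and 1.05 for all tested genes. Over all 9 members, with hsp16 included and nothing added, the medians were 1.07 and 1.25, so the side of 1 on which the median over replicate 1 lay depended on this choice. Taking the lower of the ratios to the 30 °C libraries, hsp104 had the largest, at 1.56 over each, with intervals of 0.756 to 3.12 and 0.680 to 3.64 that reach below 1.

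Relative to both 30 °C libraries, 6 of 9 members were at least 2-fold higher in prp2-1, hsp104, hsp16, hsp90, pss1, ssa1 and ssa2, whereas 7.64% of 1636 genes were. Of these, hsp16 passed the read minimum only through prp2-1. The same prp2-1 library serves here and in the comparison at 37 °C, so the 2 counts are not independent. The median ratio of the members was 2.66 over replicate 1 and 3.05 over replicate 2, beside 0.928 and 0.967 for all tested genes. Between the 30 °C libraries themselves, replicate 2 over replicate 1, 0 of 8 members were 2-fold higher and 1 was 2-fold lower, hsp9 at 0.179 (0.0932 to 0.317). For all 1597 genes tested between these libraries, 12.3% were 2-fold higher and 17.5% were 2-fold lower.

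Without 30 °C replicate 1, hsp9 was called higher in the wild type at 37 °C, at 2.97-fold (1.51 to 6.18), which makes 1 of 7 members, beside 19.8% of all genes at that setting. Over the 6 sequencing cells of replicate 1 the hsp9 level had a lowest value of 2.41, a median of 23.0 and a highest of 28.2 reads per 10000, and over the 3 cells of replicate 2 it ran between 3.21 and 5.52. The part of the cells in this difference was not tested.

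All ratios move together when all aligned reads replace protein-coding reads as the denominator. The median log2 ratio of all tested genes then shifted by -0.12 for prp2-1 over the wild type at 37 °C, and by 0.69 and 0.18 for the wild type at 37 °C over 30 °C replicates 1 and 2. It shifted by 0.51 between the 30 °C libraries. Calls in all genes for the wild type at 37 °C over both 30 °C libraries were then 252 higher and 120 lower, in place of 105 and 199. For prp2-1 over both 30 °C libraries they were 197 and 197 in place of 125 and 266, and for replicate 2 over replicate 1 they were 389 and 156 in place of 197 and 280. For members, the same 5 were higher in prp2-1 at 37 °C, 0 were called between the wild type at 37 °C and 30 °C, and 7 were higher in prp2-1 than in both 30 °C libraries, wos2 joining the 6.

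Other chaperone and stress genes give the setting. Of the co-chaperones and partners of Hsp90 and Hsp70, 13 were matched and 5 had enough reads at 37 °C. Of these, 2 were 2-fold higher in prp2-1 than in the wild type at 37 °C, aha1 and psi1, and 0 were lower. With 25 reads in prp2-1 and 2 in the wild type, psi1 passed the read minimum only through prp2-1. The list's best-read genes were sti1, the adaptor between Hsp70 and Hsp90, and mas5, a J-domain partner of Hsp70. The sti1 gene was at 18.3 reads per 10000 in prp2-1 and 13.1 in the wild type at 37 °C, against 5.00 and 5.57 in 30 °C replicates 1 and 2. It was past 2-fold over both 30 °C libraries in the wild type at 37 °C as well. The mas5 gene was at 6.38 in prp2-1 and 6.17 in the wild type at 37 °C, against 3.06 and 5.88 in 30 °C replicates 1 and 2.

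Organelle chaperones had 2 of 6 tested genes 2-fold higher in prp2-1 than in the wild type at 37 °C, the mitochondrial hsp10 and hsp78, and 0 lower. With 29 reads in prp2-1 and 5 in the wild type, hsp78 passed the read minimum only through prp2-1. The Hsp70 of the endoplasmic reticulum, bip1, was at 19.5 reads per 10000 in prp2-1 and 13.9 in the wild type at 37 °C, against 12.9 and 12.7 in 30 °C replicates 1 and 2. The mitochondrial Hsp70 gene ssc1 was at 18.7 in prp2-1 and 11.6 in the wild type at 37 °C, against 12.3 and 10.5 at 30 °C. Neither reached 2-fold in any of these ratios. The cnx1 gene was past 2-fold over both 30 °C libraries in the wild type at 37 °C. It was at 2.05 times (0.866 to 4.77) replicate 1 and 2.49 times (0.865 to 8.09) replicate 2.

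The chaperonin CCT, a ring that folds actin and tubulin, had genes in both directions. Of 6 tested subunit genes, 1 was 2-fold higher in prp2-1 than in the wild type at 37 °C, cct8, and 3 were lower, cct1, cct2 and cct5. Each of these 4 reached 10 reads only in the library where it is high, with 20 reads in prp2-1 and 8 in the wild type for cct8, 7 and 15 for cct1, 8 and 17 for cct2, and 5 and 17 for cct5. The list's median ratio was 0.651, and it depends on the same minimum. Its best-read genes, cct6 and cct4, were at 12.4 and 4.79 reads per 10000 in prp2-1 and at 15.4 and 3.85 in the wild type at 37 °C. In 30 °C replicate 1 they were at 4.51 and 3.87, and in replicate 2 at 3.09 and 4.64. Past 2-fold over both 30 °C libraries in the wild type at 37 °C were cct1 and cct6.

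Stress response genes that are not chaperones had 5 of 6 tested genes 2-fold higher in prp2-1 than in the wild type at 37 °C, atf1, ctt1, gpd1, ntp1 and tps1, with a median ratio of 3.45. Of these 5, atf1 (13 reads in prp2-1 and 3 in the wild type), ctt1 (16 and 3) and ntp1 (29 and 7) passed the minimum of 10 reads only through prp2-1, where they are high, so the count and the median depend on that minimum. The gpd1 gene, for glycerol-3-phosphate dehydrogenase, was at 23.9 reads per 10000 in prp2-1 and 6.55 in the wild type at 37 °C, against 18.4 and 1.24 in 30 °C replicates 1 and 2. The tps1 gene, for trehalose synthesis, was at 13.2 in prp2-1 and 5.01 in the wild type at 37 °C, against 4.84 and 3.09 at 30 °C. In the wild type at 37 °C, atf1 was 2-fold lower than in both 30 °C libraries, with 3 reads against 22 and 24. As for hsp9, the 30 °C libraries disagreed on this list, with 4 of its 6 tested genes 2-fold lower and 1 higher in replicate 2 than in replicate 1. Of heat shock factor hsf1, ubi4 and hsp20, only ubi4 had enough reads, at 14.4 reads per 10000 in prp2-1 and 8.86 in the wild type at 37 °C, against 6.29 and 7.42 at 30 °C. The hsf1 gene had 9 reads in prp2-1, 4 in the wild type at 37 °C, and 7 and 4 in 30 °C replicates 1 and 2. Genes of these lists were also at least 2-fold higher in prp2-1 than in both 30 °C libraries. They were 3 of 7 tested co-chaperone genes, 4 of 6 organelle chaperone genes, 1 of 8 CCT genes and 4 of 7 stress genes. Of all 1636 genes tested, 7.64% were. Among the list genes, psi1 (25 reads in prp2-1, 8 and 6 at 30 °C) and gpx1 (10, 6 and 3) passed the read minimum only through prp2-1.

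Runs of 2 heat shock units lay in the promoter windows of 6 of 13 co-chaperone genes, 5 of 8 organelle chaperone genes and 1 of 8 CCT genes. They lay in 0 of the 8 stress genes that are not chaperones. A 3-unit run lay in wis2 and cnx1 among these lists.

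The genes with the profile most like the members' were found among 855 genes with at least 40 reads. The measure was the Euclidean distance between log2 levels in the 4 libraries, centred on each gene's mean, and the members' median profile. The 5 nearest were ght2 (distance 0.19), SPAC29A4.02C (0.23), erg1 (0.23), tpx1 (0.27) and tps3 (0.29). Among the members, hsp90 (0.21), ssa2 (0.24), pss1 (0.32) and wos2 (0.53) lay nearer than hsp104 (0.88), sks2 (1.24) and hsp9 (1.62). The members' own values set this profile, so their distances do not compare evenly with those of the other genes. With only 4 libraries such distances are a description.

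Introns occur in 2 of the 9 genes. The pss1 intron (I:1920202-1920606, minus strand) is 405 nt long and lies in the 5′ UTR, and the wos2 intron (I:4468769-4468967, minus strand) is 199 nt long and lies in the coding sequence. The median annotated intron is 56 nt, and 99% and 93.3% of 5186 introns are shorter than those of pss1 and wos2. Their splice sites are shown because U2AF acts at the 3′ one, read from the RefSeq genome, build ASM294v3, in the direction of the gene. Capitals mark the first 6 intron bases at the 5′ site, and the branch motif and last 3 intron bases at the 3′ site.
pss1 5′ site: atacacGTAAGTaatagt
pss1 3′ site: gcggaatttattaCTAACtttTAGtcatat
wos2 5′ site: ctgaagGTATGTtacaac
wos2 3′ site: tgcttgttaCTAACattcgttTAGttttat
The same 6 bases open 27.7% of annotated introns in the case of pss1 and 19.9% in the case of wos2, and 68.6% end in TAG. Pyrimidines made up 12 of the last 20 bases before the final dinucleotide in pss1 and 14 of 20 in wos2, and the median intron had 12.

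Splicing of both introns was seen in a smaller share of reads in prp2-1 than in the wild type at 37 °C. A read was scored if it reached at least 10 nt past the intron on both sides. In pss1, 32 of 54 reads were spliced in prp2-1 (59.3%, 95% Wilson interval 46.0 to 71.3) and 34 of 39 in the wild type at 37 °C (87.2%, 73.3 to 94.4). At 30 °C, 34 of 39 reads were spliced in replicate 1 (87.2%) and 19 of 20 in replicate 2 (95%), a mean of 91.1 ± 5.53% (SD, n = 2). The 3 wild-type libraries overlapped and prp2-1 lay below them. The spliced share of pss1 in prp2-1 fell by 27.9 percentage points relative to the wild type at 37 °C (Newcombe interval -43.0 to -9.53). The adjusted p was 0.0482 (Fisher's exact test, two-sided, Benjamini-Hochberg over 68 introns).

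In wos2, 3 of 25 reads were spliced in prp2-1 (12%, 4.17 to 30.0) and 7 of 12 in the wild type at 37 °C (58.3%, 32.0 to 80.7). At 30 °C, 19 of 30 reads were spliced in replicate 1 (63.3%) and 9 of 16 in replicate 2 (56.3%), a mean of 59.8 ± 5.01% (SD, n = 2). The spliced share of wos2 in prp2-1 fell by 46.3 points relative to the wild type at 37 °C (-70.0 to -14.4), with an adjusted p of 0.0482 by the same Fisher's exact test. The intron was still present in 22 of 25 reads in prp2-1, 5 of 12 in the wild type at 37 °C, and 11 of 30 and 7 of 16 in 30 °C replicates 1 and 2.

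At 68 introns both 37 °C libraries had 10 or more scored reads, and 11.8% of these passed the threshold, 8 introns, all lower in prp2-1, and the median difference was -15.6 points. Both members are among these 8. Their calls did not withstand every setting: the adjusted p ranged between 0.0324 and 0.116 over 7 alternatives for pss1, of which 3 stayed under 0.05, and between 0.0410 and 0.117 over 6 for wos2, of which 2 did. The direction was the same in each of them. Within sequencing cells, pss1 was less spliced in prp2-1 in 5 of 6 cells and more spliced in 1, with between 4 and 15 reads a cell. For wos2 it was lower in 4 of 6 and higher in 0, with between 1 and 8 reads.

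**Figure D4:**
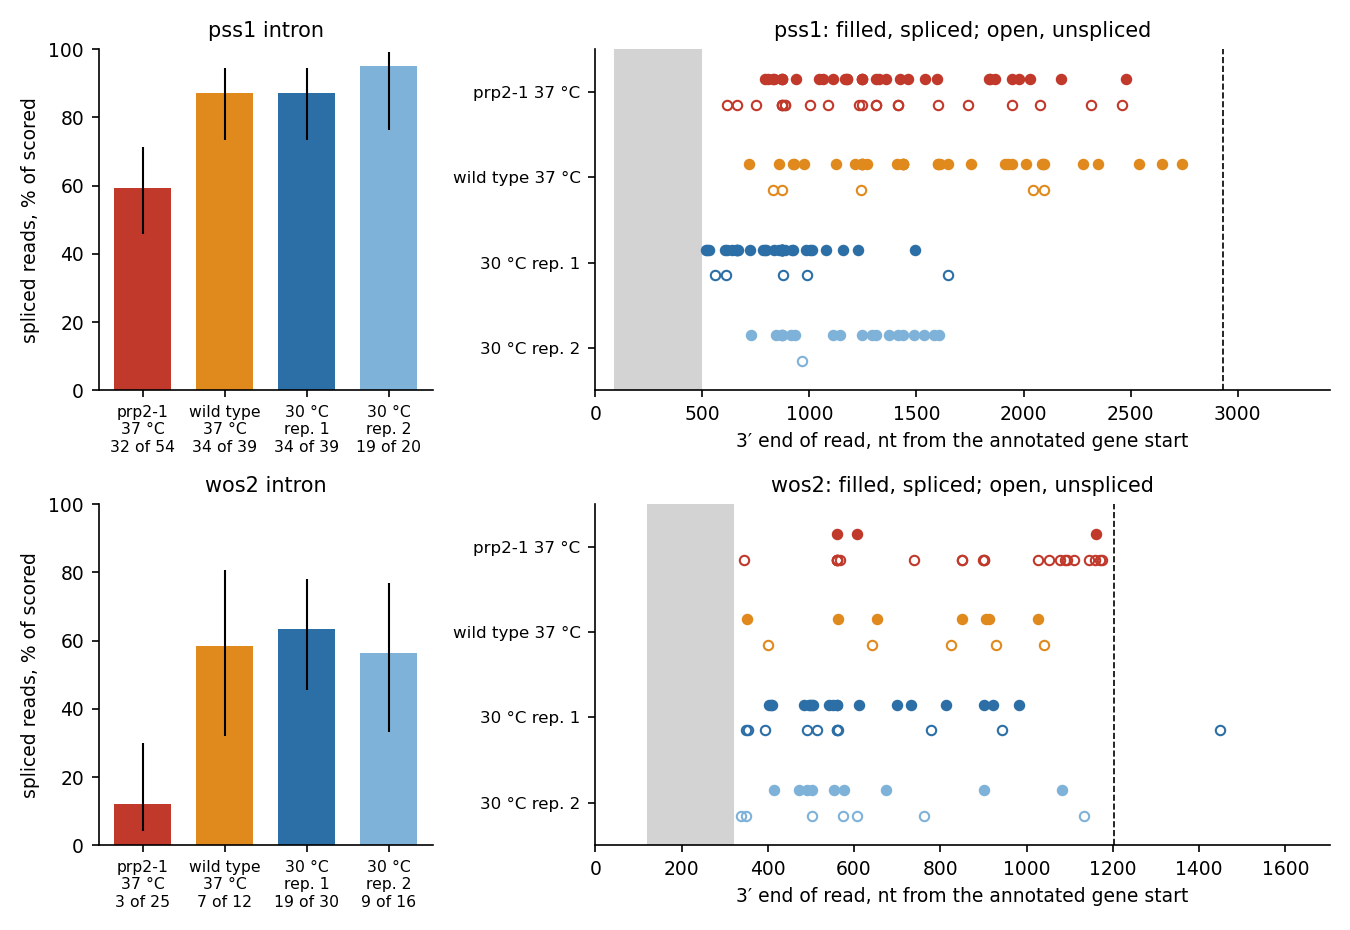
Left, spliced reads as a percentage of scored reads for the pss1 and wos2 introns in each library with 95% Wilson intervals and the counts below. Right, the 3′ end of every scored read in nt from the annotated gene start, spliced (filled) or unspliced (open), with the intron in grey and the annotated gene end as a dashed line; prp2-1 has 22 unspliced reads in each gene, spread along it.

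Unspliced reads in prp2-1 had 3′ ends both near the intron and far from it. In pss1 they ended a median of 744 nt past the 3′ splice site and up to 1965 nt past it, and spliced reads in prp2-1 a median of 749 nt. With the 3′ end more than 800 nt past the site, 15 of 25 pss1 reads were spliced in prp2-1 (60%, 40.7 to 76.6) and 22 of 24 in the wild type at 37 °C (91.7%, 74.2 to 97.7). Between 200 and 800 nt past it, 17 of 27 were spliced in prp2-1 (63.0%) and 12 of 15 in the wild type at 37 °C (80%). The prp2-1 shares were alike in both distance ranges, with overlapping intervals, and were not tested against each other.

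For wos2 the unspliced reads in prp2-1 ended a median of 581 nt past the 3′ splice site and up to 854 nt. Between 200 and 800 nt past it, 2 of 19 reads were spliced in prp2-1 (10.5%, 2.94 to 31.4) and 6 of 10 in the wild type at 37 °C (60%, 31.3 to 83.2). Spliced reads were also found with 3′ ends close to the intron. In 30 °C replicate 1, which has the shortest reads, a spliced pss1 read ended 23 nt past the 3′ splice site, and 10 of 12 reads ending within 200 nt were already spliced (83.3%, 55.2 to 95.3). A spliced wos2 read ended 31 nt past the site in the wild type at 37 °C.

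Between the wild type at 37 °C and 30 °C replicate 1, pss1 differed by 0 points (-15.6 to 15.6) and wos2 by -5.0 points (-35.2 to 23.6). Neither passed the threshold of the exact test, which 4.17% of 96 introns did. Against replicate 2 the differences were -7.82 points (-22.3 to 12.1) in pss1 and 2.08 points (-31.4 to 34.2) in wos2, where 3.51% of 57 introns passed. The intervals of these differences between the wild type at 37 °C and 30 °C still allow over 12 points in either direction. Between the 30 °C libraries neither intron passed, whereas 35.8% of 106 introns did. Of the 106, 36 were called lower in replicate 2, and the median difference was -23.9 points, beside -15.6 points for prp2-1 against the wild type at 37 °C. No read of any member in any library held a gap other than at these 2 introns.

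Read starts bear on what is scored. In pss1, 37 of 97 reads in prp2-1 and 11 of 53 in the wild type at 37 °C began downstream of the intron and could not be scored, against 40 of 88 and 17 of 41 in 30 °C replicates 1 and 2. A start within 50 nt of the annotated gene start was found in 36.1% of pss1 reads in prp2-1 and 69.8% in the wild type at 37 °C, against 45.5% and 51.2% in 30 °C replicates 1 and 2. In wos2 the share was 84.8% in prp2-1 and 92.3% in the wild type at 37 °C, against 73.9% and 94.4% at 30 °C. Among scored pss1 reads, 23 of 32 spliced and 10 of 22 unspliced reads in prp2-1 had such a start. In the wild type at 37 °C, 31 of 34 spliced and 5 of 5 unspliced pss1 reads did. Unspliced pss1 reads thus began within 50 nt of the annotated start less often in prp2-1, with only 5 unspliced reads in the wild type at 37 °C. The part of read starts in the pss1 splicing difference was not tested.

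Read ends were spread along the gene bodies. Ends held by polymerase were not told apart from other RNA ends. A 3′ end was counted at the gene end if it lay no more than 100 nt before the annotated end, or past it. Over all members, 70 of 545 reads ended there in prp2-1 (12.8%, 10.3 to 15.9) and 46 of 281 in the wild type at 37 °C (16.4%, 12.5 to 21.1), against 110 of 696 (15.8%) and 28 of 269 (10.4%) in 30 °C replicates 1 and 2. All protein-coding reads gave 13.9% in prp2-1 and 15.5% in the wild type at 37 °C, against 11.7% and 12.4% at 30 °C. The intervals of the members overlapped across the 4 libraries.

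Shares at the gene end ranged widely among members. In pss1, 0 of 97 reads ended at the gene end in prp2-1, which allows a share of up to 3.09%, and 1 of 53 in the wild type at 37 °C, against 4 of 88 and 1 of 41 in 30 °C replicates 1 and 2. In hsp9 the share was 15 of 48 in prp2-1 (31.3%) and 13 of 31 in the wild type at 37 °C (41.9%), against 57 of 139 (41.0%) and 5 of 13 (38.5%) at 30 °C. In hsp90 it was 20 of 127 in prp2-1 (15.7%) and 17 of 73 in the wild type at 37 °C (23.3%), against 15.1% and 18.7% at 30 °C.

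By Fisher's exact test with Benjamini-Hochberg adjustment, 0 of the 7 members tested were called between prp2-1 and the wild type at 37 °C, beside 0% of 410 genes. An unadjusted p under 0.05 was found for 9 of the 410 genes and 0 of the members. Between the wild type at 37 °C and 30 °C, 0 of 7 members passed against either library, beside 2.68% of 597 genes for replicate 1 and 0.644% of 466 for replicate 2, and 0 members had an unadjusted p under 0.05. Between the 30 °C libraries 0 of 7 members and 1.26% of 717 genes passed. There ssa2 had 1 of 54 reads at the gene end in replicate 2 and 16 of 109 in replicate 1, an adjusted p of 0.291 by the exact test and the only member with an unadjusted p under 0.05.

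**Figure D5:**
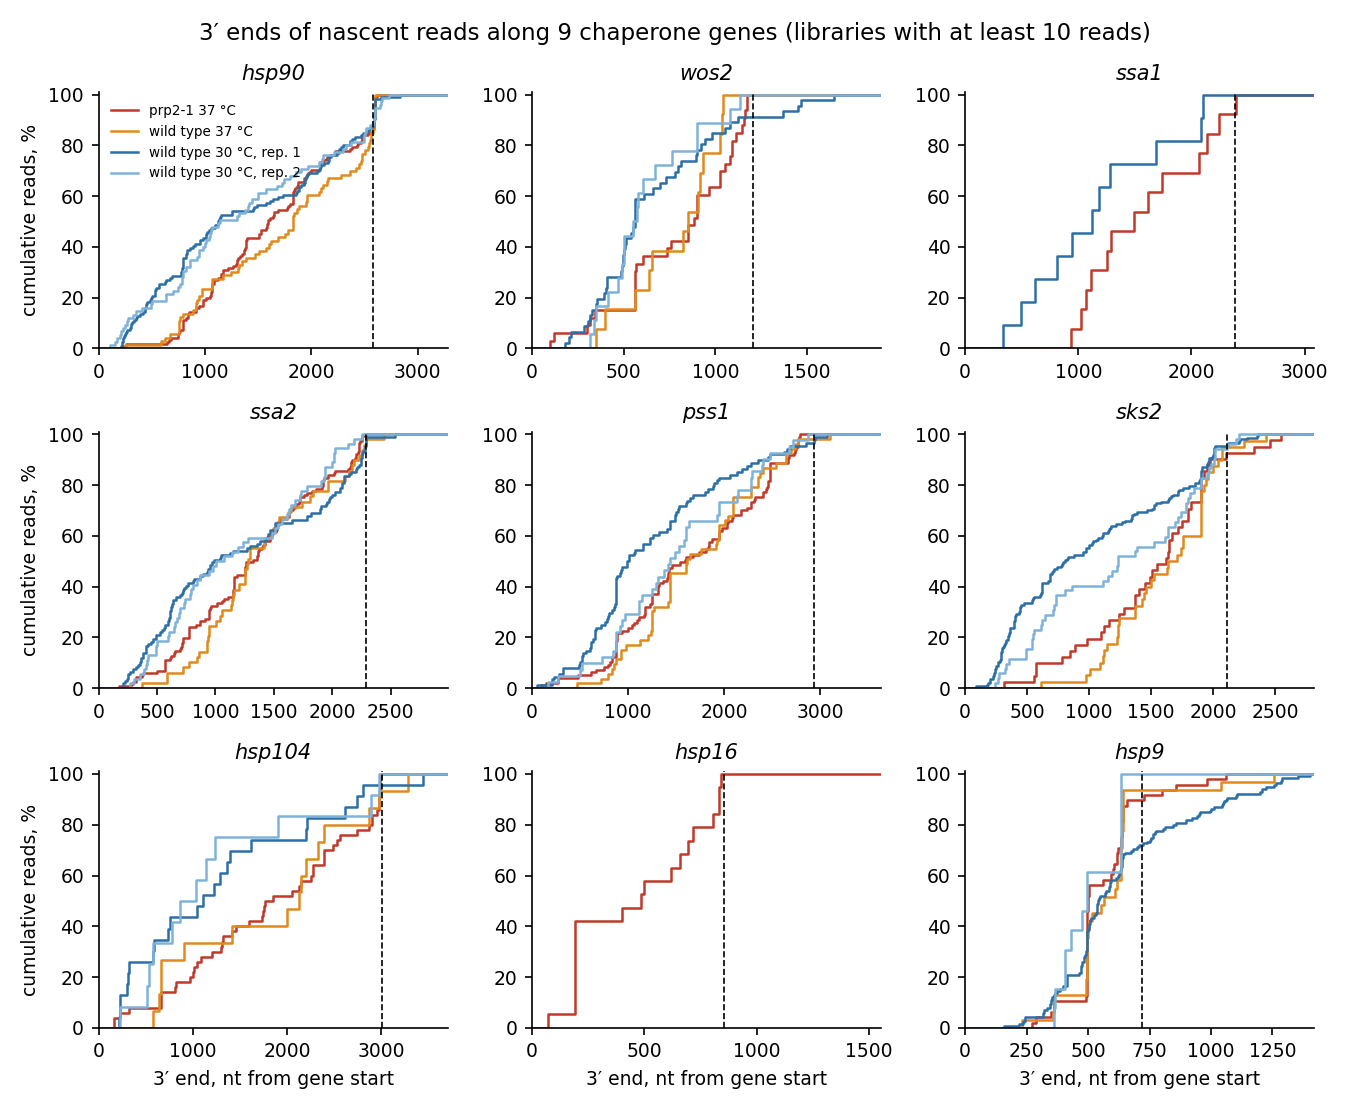
Cumulative percentage of reads by the position of the 3′ end, in nt from the annotated gene start, for each gene and each library with at least 10 reads, with the annotated gene end as a dashed line. Curves of the 30 °C libraries, whose reads are shorter, climb earlier in most members, among them hsp90, ssa2 and sks2, and hsp9 shows a step before the gene end.

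In all members except hsp16 and hsp9, the median 3′ end lay nearer the gene end in both 37 °C libraries, whose reads are longer, than in the 30 °C libraries. The values of hsp90 and sks2 are given here. In hsp90 the median end lay 988 nt before the gene end in prp2-1 and 757 nt in the wild type at 37 °C, against 1454 and 1445 nt in 30 °C replicates 1 and 2. Median spans of hsp90 reads were 895 nt in prp2-1 and 956 nt in the wild type at 37 °C, against 317 and 572 nt at 30 °C. In sks2 the median end lay 497 nt before the gene end in prp2-1 and 444 nt in the wild type at 37 °C, against 1311 and 883 nt at 30 °C. The part of read length in these positions was not tested.

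Some 3′ ends recurred at one place. In hsp9, a window of 11 nt centred 217 nt after the stop codon held 20 of 48 ends in prp2-1 (41.7%) and 8 of 31 in the wild type at 37 °C (25.8%), against 14 of 139 (10.1%) and 2 of 13 (15.4%) in 30 °C replicates 1 and 2. Only 29 of the 48 prp2-1 reads and 20 of the 31 wild-type reads at 37 °C had distinct alignments, and counting each alignment once gave a level ratio of 1.53, beside 1.60 with all reads. Copies made by PCR and separate molecules with the same ends cannot be told apart here. The window and 9 flanking bases on each side are shown in the direction of the gene, with the window in capitals.
hsp9: aattttatgATATATAACGAggttacgtg
In hsp90 the window with most ends lay 16 nt past the annotated gene end, with 9 of 127 ends in prp2-1 and 7 of 73 in the wild type at 37 °C, against 10 of 126 and 3 of 75 at 30 °C. In sks2 it lay 3 nt after the stop codon, with 4 of 41 ends in prp2-1 and 7 of 40 in the wild type at 37 °C, against 6 of 147 and 2 of 52 at 30 °C. In hsp16, wos2, pss1, ssa1 and ssa2 the window with most ends lay inside the coding sequence. That of hsp16, 661 nt before the gene end, held 7 of 19 ends in prp2-1 and 0 of 4 in the wild type at 37 °C, against 2 of 7 and 0 of 1 at 30 °C. That of wos2, 639 nt before the gene end, held 6 of 33 and 1 of 13, against 5 of 46 and 0 of 18. All these windows were chosen for holding most ends over the 4 libraries, so their counts are a description.

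Whole transcripts, with the start within 50 nt of the gene start and the end at or past the gene end, were most numerous in the short hsp9 gene. There were 14 in prp2-1 and 12 in the wild type at 37 °C, against 36 and 5 in 30 °C replicates 1 and 2. In wos2 there were 6 in prp2-1 and 0 in the wild type at 37 °C, against 1 in each 30 °C library. In the longest members, hsp90, pss1 and hsp104, there was 1, an hsp90 read in the wild type at 37 °C. Reads on the opposite strand of the members were few, at most 2 for any gene and library.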

How the data were processed

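Each deposited file has 1 line per aligned long read with its position, strand and aligned blocks, which are other values than normalised signal, and the authors applied no normalisation that the labels describe. Per the labels' protocols, poly(A) RNA and ribosomal RNA were removed, a DNA adaptor was ligated to 3′ ends, and low-cycle PCR cDNA was sequenced on a Pacific Biosciences instrument. The deposited files are named as filtered for poly(A) reads. Cutadapt 1.8 was used, per the submitters' processing notes, and the aligner and genome build are not given in the sources used here. The random bases of the adaptor are not in the deposited lines, so PCR copies could not be removed.

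Coordinates are 1-based on ASM294v3 (RefSeq). Between 88.7% and 94.0% of alignment gaps in a library equalled an annotated intron at both ends. Reads were counted with Python 3.11.15, numpy 2.4.6 and scipy 1.17.1. A level is the reads of a gene per 10000 protein-coding reads. A gene with at least 10 reads in a library compared was called at 2-fold. For 37 °C against 30 °C this had to hold against both 30 °C libraries. With 1 library per strain at 37 °C, no p-value was computed for a level. Ratio intervals are exact conditional binomial ones. A read counted as spliced where the gap began and ended no more than 5 nt from the annotated splice sites, and as unspliced if at least 90% of the intron was aligned with no gap of 20 nt or more. For a share of 0 the limit given is 3 counts of the total. Shares have Wilson and differences Newcombe 95% intervals. Fisher's exact tests, two-sided, were adjusted by Benjamini-Hochberg over all introns of at least 30 nt or all genes with at least 10 reads in both libraries, at a threshold of 0.05. The scripts were tested on simulated data.

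The members, gene lists and rules were chosen with earlier results of these data known. Besides the members, the 2 best-read genes of each list were named, and genes counted as called were named after their values were seen. Of the listed symbols, caj1 and lhs1 were not matched, hsp60 and git10 are synonyms of mcp60 and hsp90 in the annotation, and ssp1 was left out because it names a kinase gene there. Alternatives covered the read minimum, the fold, the denominator, repeated reads, read span, splice-site and end tolerances, and leaving out each 30 °C library.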

Additional observations from a re-analysis of the deposited data

How the results depend on the processing

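Counting identical alignments once, leaving out repeated read names, using only reads spanning at least 300 nt, or requiring 50% of aligned bases in the gene left the same 5 members called higher in prp2-1 than in the wild type at 37 °C. With at least 20 reads there were 3, at 1.5-fold 8 and at 3-fold 3, beside 15.5%, 26.1% and 6.42% of all genes. Those with at least 20 reads were hsp104, ssa2 and wos2, of which hsp104 and wos2 passed that minimum only through prp2-1. Those at 3-fold were hsp104, hsp16 and ssa1. There and at 1.5-fold, hsp16 and ssa1 passed the minimum of 10 reads only through prp2-1. At 3-fold, 2 members stayed above both 30 °C libraries in prp2-1, hsp104 and hsp16, beside 2.87% of all genes, and hsp16 passed the read minimum only through prp2-1. In the wild type at 37 °C, 1 member, hsp104, was higher than both 30 °C libraries at 1.5-fold, beside 16.2% of all genes, and leaving out each 30 °C replicate in turn gave between 0 and 1, the 1 being hsp9 without replicate 1, beside 19.8% of all genes. Between the 30 °C libraries 2 members were lower in replicate 2 with no minimum of reads and 2 at 1.5-fold, beside 20.1% and 30.1% of all genes, where the main count was 1. The ratio of prp2-1 to the wild type at 37 °C stayed above 1 in all 5 alternatives that recompute it for 8 genes, and in 4 of 5 for sks2, whose lowest value was 0.977. The spliced share of pss1 and wos2 was no longer past the threshold with identical alignments counted once (-26.1 and -44.7 points, adjusted p 0.0676 and 0.1), with repeated read names left out (-28.8 and -46.4, 0.0954 for both), with reads ending past the gene left out (-27.9 and -46.3, 0.0502 for both) and with introns of at least 5 reads (-27.9 and -46.3, 0.116 and 0.117). The values moved little in these fits, and the numbers of introns tested were 67, 45, 62 and 290 in place of 68. With at least 20 reads wos2 was not tested. The exact test made 0 member calls on read ends under every alternative run. No paired analysis was possible because each 37 °C group has 1 library and shares fewer than 2 replicate numbers with the 30 °C group. With 1 to 19 reads a library, ssa1 and hsp16 set the limit of depth, and the intervals of their ratios of prp2-1 to the wild type at 37 °C span more than 10-fold.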
